A study of Rattus norvegicus with 183 samples.

Results

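The Gfap-high libraries are the 30 with the most Gfap among the posterior ventral tegmental area libraries that hold Th, and the Gfap-low libraries are the 30 with the least. The series labels 183 samples of polyA RNA from this midbrain region of outbred rats, a heterogeneous stock; 31 carry a note of removal and the rest have values. Of those with values, 11 held at most 3.47 CPM of Th, the dopamine-synthesis enzyme, under the limit of 10 CPM, and were left out, while all others held at least 577 CPM and were ranked by Gfap. The labels give no treatment, genotype, sex, age or strain beyond this, and the sides were defined by 1 measured gene. The remaining 81 ranked libraries are in neither side. CPM stands for estimated counts of a gene per 1e6 counts of its library.

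Gfap encodes glial fibrillary acidic protein, the intermediate filament of astrocytes. Astrocytes differ in how much of it they make: fibrous astrocytes of white matter and those that form the glia limitans under the pia and around vessels are rich in it, protoplasmic astrocytes of grey matter hold little, and injury or inflammation raises it in reactive astrocytes. The sides were compared over all genes for transcripts of these astrocyte states. A bulk sample cannot tell more cells of a type from more RNA per cell, nor an animal from the piece of tissue that was cut.

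Gfap chose the members and is given as a description only. It ranged from 1753 to 4352 CPM in the Gfap-high libraries (median 2150), against 209 to 709.6 CPM in the Gfap-low libraries (median 539.7), and the highest library of all held 20.8 times the lowest. The edges are not gaps: rank 30 held 1752.52 CPM and rank 31, just outside, 1740.63 CPM, while the last Gfap-low library held 709.642 CPM and the next one 711.472 CPM. Aqp4, the water channel of astrocyte endfeet and the other marker of the contrast, ranged from 1019 to 2382 CPM in the Gfap-high libraries (median 1613), against 443 to 1085 CPM in the Gfap-low libraries (median 633). All but 1 of the Gfap-high libraries, 29 of 30, lay above every Gfap-low library. The difference was 1.24 ± 0.08 (SE) on the log2(CPM + 1) scale, with an adjusted p of 2.27e-19 from limma. The fit was over 60 libraries with the format of the sample identifier as a covariate. The adjustment was over all fitted genes, Gfap included, and Gfap is left out of the 15580 genes counted below. All differences below are Gfap-high minus Gfap-low on this scale, and a gene is called where its adjusted p is under 0.05.

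Much else differed between the sides. Of the 15580 genes, 7850 (50.4%) were higher and 2931 (18.8%) lower in the Gfap-high libraries, with a median difference of 0.13. Scaled by a trimmed mean of M values, which moves the median of all genes by 0.12 to 0.01, the counts were 5225 (33.5%) higher and 5062 (32.5%) lower, so the share of calls that were higher was 72.8% under the main scaling and 50.8% under the other; a single gene's difference is best read against the median of 0.13. Differences of at least 2-fold were called for 563 genes higher and 68 lower. Library totals were 18.5 to 49.9 M counts in the Gfap-high libraries and 15.5 to 41.7 M in the Gfap-low libraries (M stands for 1e6), so 1 CPM is at least 15.5 counts. The identifiers, whose format is the only label apart from notes on relabelling that divides the animals, were decimal in 10 and hexadecimal in 20 Gfap-high libraries, against 7 and 22 in the Gfap-low libraries; the 1 Gfap-low library with another form has a level of its own in the fit and adds nothing to the difference. Xist, the transcript of the inactive X chromosome, was at 10 CPM or more in 17 libraries of each side. Genes annotated as ribosomal RNA took a median of 0.563% of the counts of the Gfap-high libraries and 1.54% of the Gfap-low libraries. With that share added to the fit, a choice made after the data were seen, the counts were 7152 genes higher in Gfap-high libraries and 2904 genes lower in Gfap-high libraries.

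Transcripts of the meninges moved with the sides. All 12 markers of meningeal fibroblasts, the collagen-making cells of the brain's coverings, were higher in the Gfap-high libraries, with a median difference of 2.54. Their summed level was 432 to 4434 CPM in the Gfap-high libraries (median 1394), against 67.2 to 677 CPM in the Gfap-low libraries (median 182), and no marker was at 0 in all libraries of a side. A meningeal score, the mean z-score of these 12 genes, ranged from -0.16 to 2.23 in the Gfap-high libraries and from -2.02 to 0.19 in the Gfap-low libraries, so the sides hardly overlap in it. With this score as a further covariate 1639 genes (10.5%) were higher and 751 (4.82%) lower, and the median SE was 2.16 times larger, so a call lost in that fit does not show that a gene follows the meninges. Of 5 sex-linked genes, Xist among them, none was called without the score. With it 4 were lower and 1 not called (median -3.38), so that fit brings in a sex-linked difference. A fit with both the score and the presence of Xist is among the alternatives at the end. Values and counts below are without the score unless it is named, and the counts of most lists are given with it as well.

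**Figure D1:**
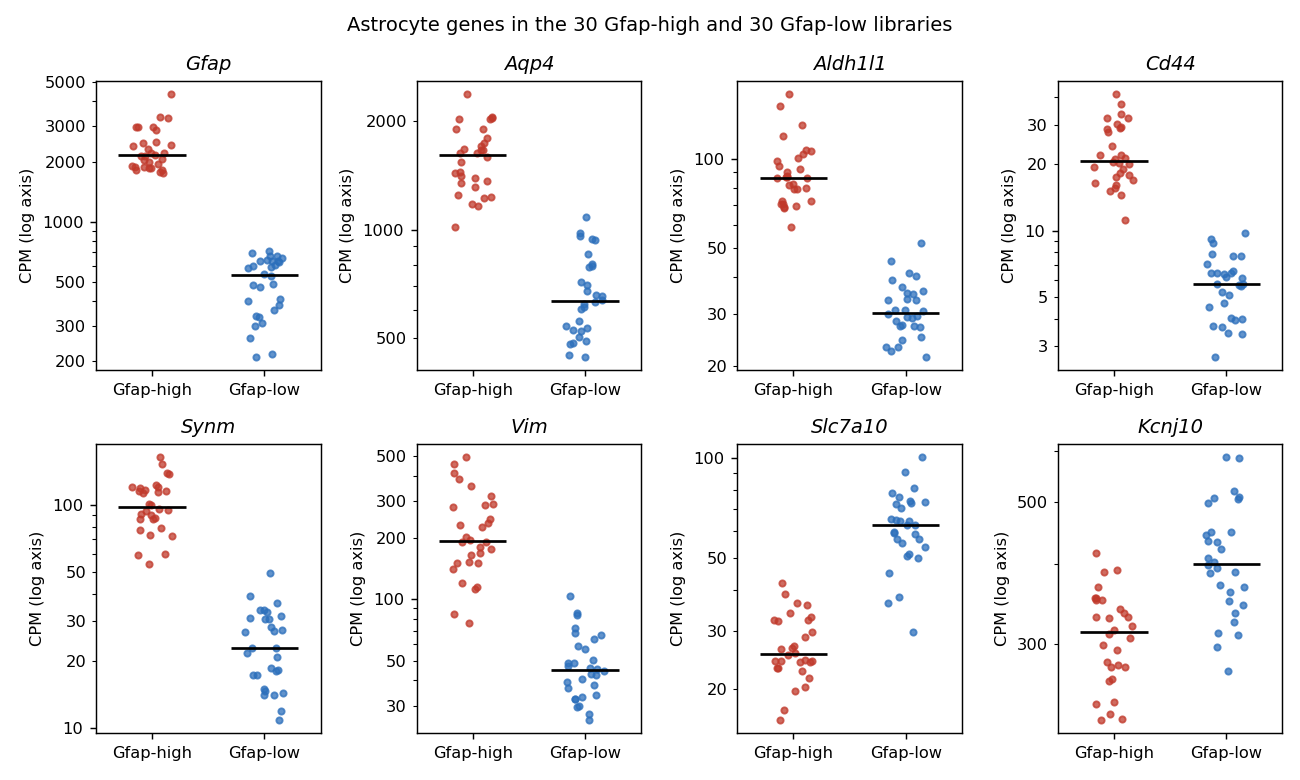
Levels in CPM, on log axes, of Gfap and 7 astrocyte genes in the 30 Gfap-high and 30 Gfap-low libraries, 1 point a library with the median as a bar. Aldh1l1, Cd44 and Synm do not overlap between the sides, while Slc7a10 and Kcnj10 have lower medians in the Gfap-high libraries (25.6 and 313 CPM) than in the Gfap-low libraries (62.8 and 400.3 CPM).

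Among genes that mark astrocytes in general, Aqp4 and Aldh1l1 stood apart from a list that was otherwise close to even. Aldh1l1, the folate enzyme used as a marker of nearly all astrocytes, ranged from 58.99 to 165 CPM in the Gfap-high libraries (median 86.3), against 21.4 to 51.97 CPM in the Gfap-low libraries (median 30.3). The sides did not overlap, and the difference was 1.5 ± 0.08 (SE; adjusted p = 1.16e-22). Of 24 general astrocyte genes 11 were higher, 7 lower and 6 not called, with a median of 0.09, under the 0.13 of all genes, of which 50.4% were called higher. Scaled by the trimmed mean the split turned to 7 higher and 9 lower. Slc1a2, the main glutamate transporter of astrocytes, was not called and had nearly equal medians (1383 CPM in the Gfap-high libraries, 1397 CPM in the Gfap-low libraries; difference -0.07 ± 0.07), although with the trimmed mean it was lower, at -0.21. Sox9, a transcription factor of the astrocyte nucleus, was not called either (0.05 ± 0.11). The second glutamate transporter Slc1a3 and the gap junction protein Gja1 were higher by 0.35 and 0.33, with overlapping sides, but neither was called within decimal identifiers, where the differences were 0.11 and 0.18. With the meningeal score in the fit, 2 of the 24 remained higher, Aqp4 (0.82 ± 0.17) and Aldh1l1 (0.85 ± 0.16), and 4 were lower.

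Some members of the general astrocyte list and of the list of transporters, channels and receptors were lower. Slc7a10, a transporter that exchanges D-serine and other small neutral amino acids, ranged from 16.2 to 42.0 CPM in the Gfap-high libraries (median 25.6), against 29.8 to 100.9 CPM in the Gfap-low libraries (median 62.8). In 21 of the 30 Gfap-high libraries it lay below every Gfap-low library, a difference of -1.16 ± 0.09 (SE; adjusted p = 3.75e-17), and it was lower with the meningeal score too (-0.95 ± 0.19). Kcnj10, the potassium channel Kir4.1, had 229 to 416 CPM in the Gfap-high libraries and 273 to 588 CPM in the Gfap-low libraries, a difference of -0.42 ± 0.07 that was -0.51 with the score. Glul, glutamine synthetase, was lower by -0.34 both without and with the score, and the glypican gene Gpc5 by -0.43 without and -0.31 with it. The glycolytic enzyme Aldoc (-0.23) and the glycine transporter Slc6a9 (-0.42) were called lower without the score and not with it. In the list of 18 transporters, channels and receptors 9 were higher, 4 lower and 5 not called, with a median of 0.16 (7 higher and 7 lower under the trimmed mean, 2 higher and 4 lower with the score). The number higher and the median are near those of all genes, of which 50.4% were called higher, with a median of 0.13. The cystine-glutamate exchanger Slc7a11 had the largest difference, with 46.6 to 226 CPM in the Gfap-high libraries (median 105.8) against 16.1 to 52.4 CPM in the Gfap-low libraries (median 30.7). It was higher by 1.85 ± 0.12, and by 0.61 ± 0.21 with the score.

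Of 12 genes of the endfoot and its dystroglycan complex, which anchors Aqp4 to the basement membrane at vessels and pia, 9 were higher, 2 lower and 1 not called, with a median of 0.30. Of all genes 50.4% were called higher, with a median of 0.13. Dystroglycan itself, Dag1, differed by 0.37 and dystrophin, Dmd, by 0.49, both less than Aqp4. Dag1 was not called within decimal identifiers (0.18). With the meningeal score Aqp4 alone of the 12 was higher and Kcnj10 alone lower, so these 2 transcripts differed in opposite directions in both fits.

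Most genes of fibrous and glia limitans astrocytes were higher in the Gfap-high libraries. Of 14 tested members 13 were higher and 1 lower, with a median of 1.15, and the counts were the same under the trimmed mean (median 1.02). The share of all genes called higher was 50.4%, and 33.5% under the trimmed mean. The fifteenth member, Thbs4, a secreted thrombospondin, was below the expression filter of a mean of 1 on the log2 scale. Its medians were 0.669 CPM in the Gfap-high libraries and 0.306 CPM in the Gfap-low libraries. Cd44, the hyaluronan receptor on fibrous astrocytes, ranged from 11.2 to 41.4 CPM in the Gfap-high libraries (median 20.8), against 2.68 to 9.79 CPM in the Gfap-low libraries (median 5.73). The difference was 1.81 ± 0.11 (SE; adjusted p = 1.73e-21) and the sides did not overlap. Synm, synemin, a filament protein that co-assembles with Gfap and vimentin, ranged from 54.5 to 164 CPM in the Gfap-high libraries (median 97.9), against 10.8 to 49.2 CPM in the Gfap-low libraries (median 22.7), again without overlap, and differed by 2.05 ± 0.12 (adjusted p = 9.72e-22). Tnc, the matrix glycoprotein tenascin C, had 8.51 to 25.6 CPM in the Gfap-high libraries and 1.42 to 11.3 CPM in the Gfap-low libraries, and 26 of the 30 Gfap-high libraries lay above every Gfap-low one. Id3, a target of BMP signalling, differed by 1.13 ± 0.09.

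These 4 genes were also the ones that were called with the meningeal score in the fit: Tnc at 1.45 ± 0.25, Synm at 1.18 ± 0.23, Cd44 at 0.93 ± 0.20 and Id3 at 0.54 ± 0.18. In that fit 10.5% of all genes were called higher. Vim, vimentin, the filament of immature and reactive astrocytes that fibroblasts and vessel cells also make, behaved differently. It ranged from 76.6 to 496 CPM in the Gfap-high libraries (median 193), against 25.7 to 103.5 CPM in the Gfap-low libraries (median 44.8). Its difference of 2.15 ± 0.15 was larger than that of Cd44, yet it was 0.04 ± 0.12 with the score. Nes (nestin, 0.98 without and 0.02 with the score), the calcium-binding S100a6 (1.61 and 0.25) and the actin-associated Fam107a (1.17 and 0.18) did likewise. Igfbp5, a binding protein of insulin-like growth factors, had 0.70 ± 0.52 with the score and was not called. Cryab, the small heat shock protein alpha-B crystallin, was the only member that was lower (-0.51 ± 0.10), and it was not called within decimal identifiers (-0.19) or with the score. The neurofilament genes, intermediate filaments of neurons, went against the glial ones: Nefh, the heavy chain, had 198 to 1212 CPM in the Gfap-high libraries (median 267) and 280 to 3594 CPM in the Gfap-low libraries (median 1214), a difference of -1.79 ± 0.20.

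**Figure D2:**
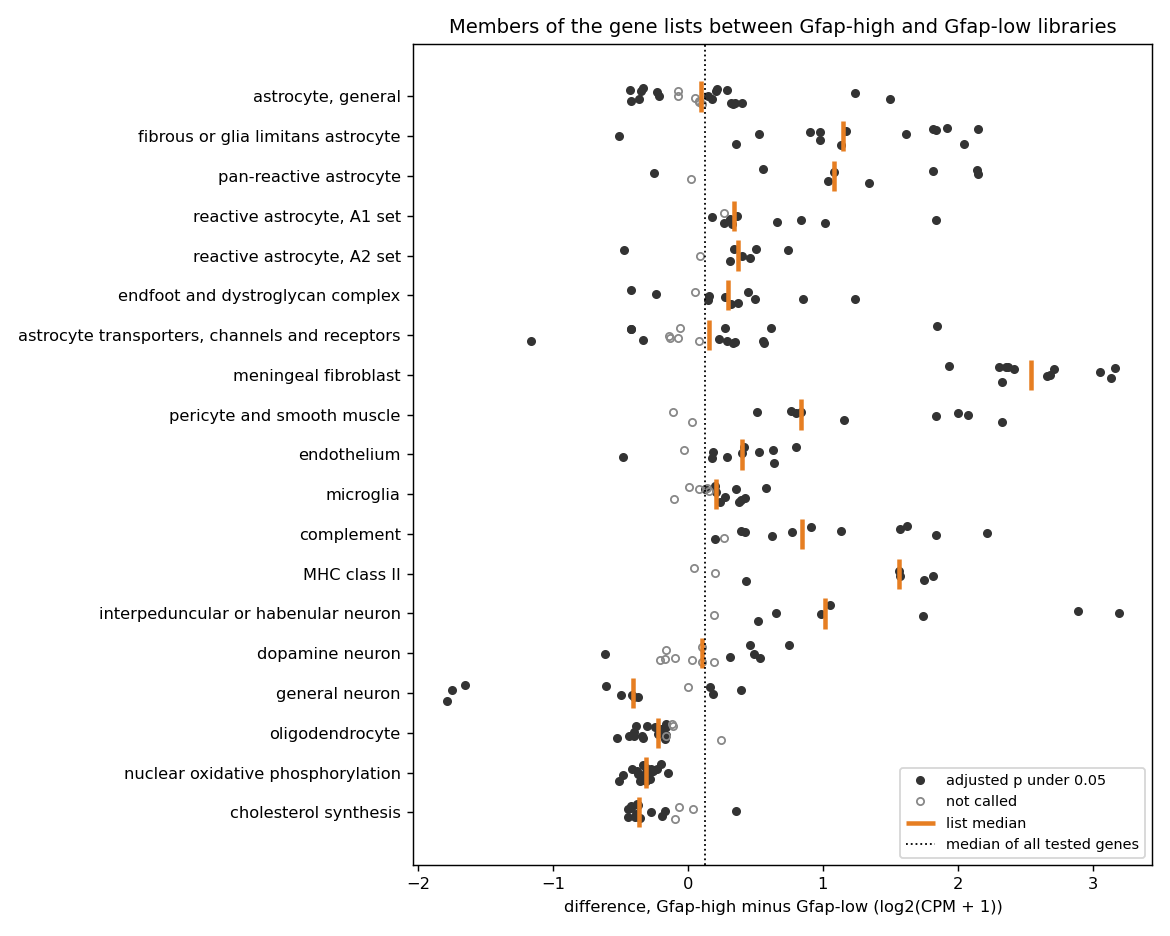
Difference of each tested member, Gfap-high minus Gfap-low on the log2(CPM + 1) scale, for 19 gene lists; filled points have an adjusted p under 0.05, the orange bar is the list median and the dotted line the median of all tested genes, 0.13. The fibrous list (median 1.15) lies to the right of the general astrocyte list (0.09), and the meningeal list lies farthest to the right (2.54).

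Genes that injury or inflammation induces in astrocytes gave a mixed result. Of 12 genes described as raised in reactive astrocytes of any kind, 3 were below the filter: Lcn2, lipocalin 2, a standard marker of reactivity, with medians of 0.224 CPM in the Gfap-high and 0.283 CPM in the Gfap-low libraries; the protease inhibitor gene Serpina3n, with a median of 0 CPM in both; and the chemokine Cxcl10, with medians of 1.08 and 0.354 CPM in the Gfap-high and Gfap-low libraries. Against 50.4% of all genes called higher, 7 of the 9 tested were higher, 1 lower (Steap4) and 1 not called (S1pr3), with a median of 1.08. They include Cd44 and Vim, which are on the fibrous list as well, and the ferroxidase Cp, with 17.5 to 112.6 CPM in the Gfap-high libraries and 4.62 to 18.9 CPM in the Gfap-low libraries. With the meningeal score Cp differed by 0.08 ± 0.16 in place of 2.14 ± 0.15, Timp1, an inhibitor of matrix proteases, by -0.35 in place of 1.04, the small heat shock protein Hspb1 by 0.45 in place of 1.34 and the oncostatin M receptor Osmr by -0.03 in place of 0.56. Cd44 alone of the 9 was higher in that fit, against 10.5% of all genes, while S1pr3, a sphingosine phosphate receptor, was lower at -0.40.

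The 2 sets that separate reactive astrocytes by their trigger had smaller median differences than the fibrous list. Of the 10 genes induced in mice by systemic endotoxin (the A1 set), 9 were higher and 1 not called, with a median of 0.34; the one not called was C3, the complement component used most often to mark that state, with 9.28 to 32.0 CPM in the Gfap-high and 5.16 to 36.1 CPM in the Gfap-low libraries; its difference of 0.27 ± 0.15 was called with 4 alternatives, among them 40 libraries a side (0.26). Serping1 (1.84) and the guanylate-binding protein gene Gbp2 (1.01) had the largest differences, of 0.07 and 0.04 with the meningeal score. Of the genes induced in mice by ischaemia (the A2 set), 8 of 13 passed the filter; 6 were higher, 1 was lower and 1 was not called, with a median of 0.37. In the fit with the meningeal score 1 gene of the A1 set was higher (median 0.05), and of the A2 set none was higher and 1 was lower (median -0.37). Emp1, an epithelial membrane protein of that set, was 0.74 higher, not called within decimal identifiers, and -0.87 with the meningeal score. The share of all genes called higher, 50.4%, is the background for these counts, and the upper quartile of all differences was 0.33.

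Signalling that drives Gfap transcription in cultured astrocytes runs through Stat3, downstream of gp130 receptors, and through BMP receptors. Of 17 tested genes of the Stat3 pathway 11 were higher and 6 not called, with a median of 0.35, against 50.4% of all genes called higher; under the trimmed mean 11 were higher and 2 lower. Stat3 had 71.7 to 105.7 CPM in the Gfap-high libraries and 49.1 to 75.5 CPM in the Gfap-low libraries, a difference of 0.31 ± 0.04, and 25 of the 30 Gfap-high libraries lay above every Gfap-low library. The gp130 gene Il6st was higher by 0.87 and the feedback inhibitor Socs3 by 0.62, the second not called within decimal identifiers. Of 15 BMP and Id genes 10 were higher, 1 lower and 4 not called (median 0.39), led by the ligand Bmp6 (2.56, but -0.27 with the meningeal score), and all 11 tested genes of TGF-beta signalling were higher (median 0.48), among them the latent TGF-beta binding protein gene Ltbp1 (1.23, and -0.03 with the score); under the trimmed mean 10 of those 11 were called. With the score 1 gene each of the Stat3, BMP and TGF-beta lists was higher, against 10.5% of all genes.

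Gene by gene, 49 of the 15580 (0.315%) had every Gfap-high library above every Gfap-low library, and none had the reverse. The expression filter is a mean over both sides, so a low gene can pass it through the side where it is high. Capsl and Edar, both among the 49, had medians of 0.653 and 0.961 CPM in the Gfap-low libraries. For such genes the lack of overlap is a description only. Besides Aldh1l1, Cd44 and Synm they include, named after their values were seen, several genes that astrocytes are known to express: the mitochondrial aldehyde dehydrogenase Aldh2 (131.5 to 237 CPM in the Gfap-high, 70.4 to 123.3 CPM in the Gfap-low libraries), the monoamine-degrading enzyme Maob (73.1 to 138.4 CPM in the Gfap-high, 36.4 to 69.5 CPM in the Gfap-low libraries), the cystathionine synthase Cbs (53.6 to 107.8 CPM in the Gfap-high, 16.3 to 50.9 CPM in the Gfap-low libraries) and the protease inhibitor A2m (68.6 to 223 CPM in the Gfap-high, 23.3 to 51.4 CPM in the Gfap-low libraries). Their differences were 0.80, 0.77, 0.99 and 1.58, and with the meningeal score 0.50, 0.41, 0.83 and 0.69, all called. These astrocyte genes are a selection and do not describe the 49. The meningeal marker Lum, a proteoglycan, is among the 49 too, as are Fndc1, Ecm2, Dnah12 and Drc1. Aebp1 had the largest difference of the 49 (3.13, and 0.48 with the score). Most of the 49 were called with the score, while Edar, Ptgfr, Fibin, Timp3, Dse and Svil were not.

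The 81 libraries in neither side, with 711 to 1741 CPM of Gfap, were not used to form the contrast. In them 6148 genes (39.5%) rose and 2086 (13.4%) fell with log2 Gfap. Of the 7850 genes higher in the Gfap-high libraries, 5686 (72.4%) were also called as rising there, and of the 2931 lower ones 1812 (61.8%) as falling. The same 13 fibrous genes had a positive slope that was called and Cryab a negative one. The slope, in log2 units per doubling of Gfap, was 0.77 ± 0.06 for Aqp4, 0.98 ± 0.11 for Synm, 0.92 ± 0.10 for Tnc, 0.98 ± 0.15 for Vim and -0.68 ± 0.09 for Slc7a10. With the meningeal score in this fit Aqp4 (0.79), Cd44 (0.87), Synm (0.85), Tnc (0.84) and Slc7a10 (-0.66) stayed near those values, while Vim was at 0.12 and not called; over all genes 23.6% then rose and 7.75% fell.

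Genes most like Gfap were taken as those with the highest Pearson r with it over these 81 libraries, so their r is a description and carries no p. Cd44 came first (r = 0.846, Spearman rho = 0.843), and r was 0.844 once the 2 libraries with the most extreme Gfap were dropped. The other 9 were Mamdc2, a gene for a proteoglycan of the extracellular matrix (0.816), Pgm5, a muscle-type phosphoglucomutase relative (0.791), Aqp4 (0.790), Aldh1l1 (0.762), Smim35, a small membrane protein gene (0.747), Itgb4, an integrin subunit that binds laminin (0.745), Prlhr, the receptor of prolactin-releasing peptide (0.741), Lcat, the enzyme that esterifies cholesterol on lipoproteins (0.738), and Slc35d1, a nucleotide-sugar transporter (0.738). Within each identifier format r was between 0.690 and 0.870 for all 10. The 60 libraries of the sides entered this choice only through the expression filter, which is a mean over them. Prlhr passed it through the Gfap-high side, with a median of 2.04 CPM there and at most 0.865 CPM in the Gfap-low libraries. Its difference is therefore a description only. In the 60 libraries the genes other than Prlhr were all higher in the Gfap-high libraries, and all of these but Aqp4 without any overlap. Itgb4 had 9.47 to 38.0 CPM in the Gfap-high libraries and 0.456 to 7.06 CPM in the Gfap-low libraries, and Lcat had 39.6 to 133.6 CPM in the Gfap-high and 2.88 to 27.6 CPM in the Gfap-low libraries. Prlhr aside, each of these genes was also called with the meningeal score, with differences from 0.67 (Slc35d1) to 1.48 (Lcat).

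**Figure D3:**
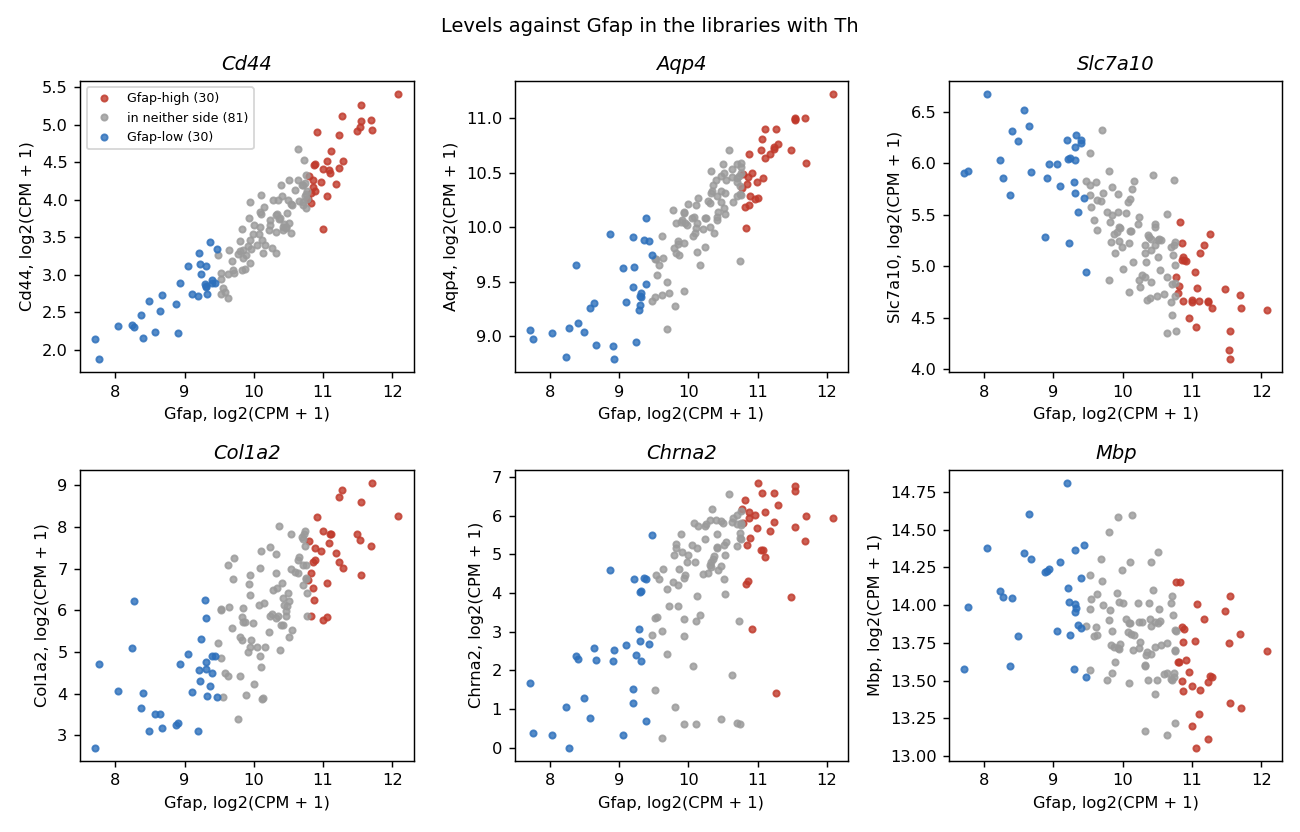
Levels of 6 genes against Gfap, both as log2(CPM + 1), in the 30 Gfap-high, 81 intermediate and 30 Gfap-low libraries, 1 point a library. Cd44 and Aqp4 follow Gfap through the whole range and Slc7a10 runs against it, whereas the collagen gene Col1a2, the nicotinic subunit gene Chrna2 and the myelin gene Mbp scatter widely at a given Gfap level.

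The 250 bases before the start sites that RefSeq's promoter table uses for Gfap, Aqp4 and Cd44, the pair of markers and the gene most like Gfap, are shown to compare the letters there. The start used for Cd44 and for Aqp4 is an inner one: the Cd44 window lies within the annotated gene and the Aqp4 window mostly so. The sequences are from RefSeq (rat build GRCr8), each gene on the minus strand, printed 5′ to 3′ in gene direction; Gfap at chr10:88361662-88361911, Aqp4 at chr18:6798843-6799092 and Cd44 at chr3:109699425-109699674. Capitals mark TTGGC on either strand, the core of the site of NFI factors, which control Gfap in developing astrocytes.
Gfap: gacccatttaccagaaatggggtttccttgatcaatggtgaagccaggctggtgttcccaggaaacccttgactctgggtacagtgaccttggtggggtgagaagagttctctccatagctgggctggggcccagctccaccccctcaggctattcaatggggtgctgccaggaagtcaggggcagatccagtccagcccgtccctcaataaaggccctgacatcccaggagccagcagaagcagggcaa
Aqp4: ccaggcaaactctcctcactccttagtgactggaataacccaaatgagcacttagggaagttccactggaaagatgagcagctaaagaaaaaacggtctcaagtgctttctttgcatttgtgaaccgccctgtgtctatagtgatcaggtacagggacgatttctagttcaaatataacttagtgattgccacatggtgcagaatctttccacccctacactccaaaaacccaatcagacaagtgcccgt
Cd44: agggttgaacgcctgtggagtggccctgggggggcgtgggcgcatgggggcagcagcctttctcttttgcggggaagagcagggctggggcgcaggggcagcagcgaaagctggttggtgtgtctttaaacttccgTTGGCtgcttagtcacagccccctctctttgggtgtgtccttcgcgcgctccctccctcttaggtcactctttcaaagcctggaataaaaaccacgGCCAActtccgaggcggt
The core begins at -114 and -18 from that start in Cd44 (the second is on the other strand, GCCAA) and is in neither other window. Over both strands it is in 40.3% of 27457 promoter windows of this length, TTCNNNGAA (STAT) is in 7.52% and TGANTCA (AP-1) in 6.36%. Of the 10 genes most like Gfap, 9 have a window in the table; 3 hold the core (Cd44, Lcat and Prlhr) and none holds TTCNNNGAA or TGANTCA.

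**Figure D4:**
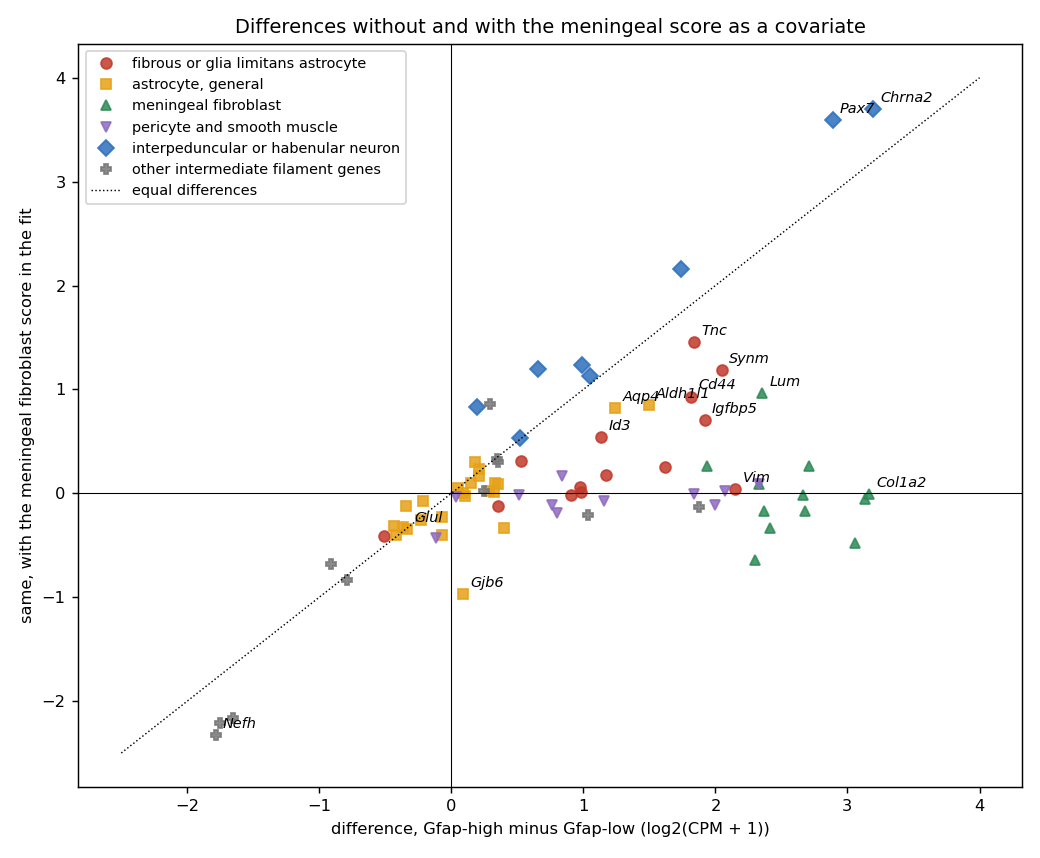
Difference of genes of 6 groups between the Gfap-high and Gfap-low libraries (log2(CPM + 1)) without (x axis) and with (y axis) the meningeal score in the fit; the dotted line marks equal values. Vim and the vessel-wall genes lie near 0 on the y axis, as do most of the meningeal genes that make up the score, while Tnc, Synm, Cd44, Aqp4 and Aldh1l1 lie between 0.82 and 1.45, and Chrna2 and Pax7 lie above 3.5.

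Many transcripts of other cells of the brain's surface and vessels were also higher in the Gfap-high libraries. Col1a2, a chain of type I collagen, had 53.95 to 532 CPM in the Gfap-high libraries (median 175) and 5.55 to 74.7 CPM in the Gfap-low libraries (median 18.1), a difference of 3.16 ± 0.22. Igf2, a growth factor of the leptomeninges, had a median of 808 CPM in the Gfap-high libraries and 83.7 CPM in the Gfap-low libraries. Of 11 genes of pericytes and smooth muscle 9 were higher and 2 not called (median 0.84), with a summed level of 259 to 1399 CPM in the Gfap-high and 142.04 to 645 CPM in the Gfap-low libraries. Myh11, the smooth muscle myosin, was higher by 2.33 ± 0.19. Of 11 endothelial genes 9 were higher, 1 lower and 1 not called (median 0.40), and none was called with the meningeal score. Plvap, an endothelial gene outside that list, was lower by -1.68, among the 20 most negative differences. Of 12 complement genes 11 were higher and C3 was not called (median 0.84), while with the meningeal score 2 were higher and 10 not called (median 0.18), with C4a at 34.0 to 178 CPM in the Gfap-high and 9.03 to 36.4 CPM in the Gfap-low libraries; C4a has a near-identical copy, C4b, and the split of reads between the copies is uncertain. Of 7 MHC class II genes 5 were higher and 2 not called (median 1.56), Cd74, the invariant chain, by 1.81. With the score none of the 7 was higher, 3 were lower and 4 not called (median -0.64). Microglial genes moved less: 10 of 15 were higher and 5 not called, with a median of 0.20, and 6 higher and 1 lower under the trimmed mean. The background for the counts in this paragraph is the 50.4% of all genes called higher (median 0.13), or 33.5% under the trimmed mean. None of the vessel-wall and none of the microglial genes was higher with the meningeal score in the fit. Ependymal genes, which line the ventricles, were higher in 7 of 8 cases, and in 1 with the score; Foxj1, the factor of motile cilia, had 11.2 to 34.6 CPM in the Gfap-high and 4.25 to 12.7 CPM in the Gfap-low libraries, and was higher with the score too (0.61 ± 0.17).

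Myelin and energy metabolism went the other way. Of 19 oligodendrocyte genes none was higher, 15 were lower and 4 not called, with a median of -0.22 (18 lower under the trimmed mean). Of all genes 18.8% were called lower, and 32.5% under the trimmed mean. Mbp, myelin basic protein, had 8524 to 18242 CPM in the Gfap-high libraries and 11767 to 28700 CPM in the Gfap-low libraries, a difference of -0.44 ± 0.08 that was not called within decimal identifiers, and the connexin gene Gjb1 differed by -0.53. With the meningeal score none of the 19 was called. All 22 nuclear genes of oxidative phosphorylation were lower, with a median of -0.31, led by the cytochrome oxidase subunit gene Cox6c at -0.51 (not called within decimal identifiers), and 20 of them fell with Gfap in the libraries in neither side. Within decimal identifiers 6 of the 22 were lower (median -0.19). With the score none was called (median -0.19). Metallothioneins split: Mt1 was higher by 0.81 and Mt3, the form of the nervous system, lower by -0.45, also not called within decimal identifiers; neither was called with the score. Of 11 lipid-carrier genes 10 were higher and 1 lower (median 0.55), and here 7 were called with the score, among them Apoe, the lipoprotein that astrocytes secrete, at 0.72 ± 0.13 in place of 0.72 ± 0.06, and Fabp7, the fatty-acid binding protein of radial glia and astrocytes, at 0.66 ± 0.21 in place of 0.68 ± 0.09. The share of all genes called higher was 50.4%, and 10.5% with the score. Apoe had 3291 to 5726 CPM in the Gfap-high and 1687 to 3652 CPM in the Gfap-low libraries. Of 11 genes of brain proteoglycans, tenascins and their link proteins 6 were higher, 4 lower and 1 not called (4 higher and 4 lower under the trimmed mean; 2 higher and 3 lower with the score). The numbers higher without the score are near the shares of all genes called higher, 50.4%, or 33.5% under the trimmed mean. Acan, aggrecan, differed by -1.12 and the link protein gene Hapln4 by -1.19, while Ncan, neurocan, was higher by 0.99.

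Neuronal transcripts differed between the sides as well. Of 8 interpeduncular or habenular genes 7 were higher (median 1.02), and the same number was higher with the meningeal score. The share of all genes called higher was 50.4%, and 10.5% with the score. Chrna2, a nicotinic receptor subunit of the interpeduncular nucleus, had 1.66 to 113.7 CPM in the Gfap-high libraries (median 55.2) and 0 to 43.9 CPM in the Gfap-low libraries (median 4.02), a difference of 3.19 ± 0.33 and of 3.70 ± 0.74 with the score; the transcription factor Pax7 differed by 2.89 and 3.59. Slc17a6, the vesicular glutamate transporter of the midbrain, was lower by -0.97 ± 0.12. It was the only lower one of 5 tested glutamate neuron genes, of which 2 were higher and 2 not called (median 0.69). Gad1, which makes GABA, was higher by 0.95 ± 0.12, the largest difference of 8 GABA neuron genes. Of those 5 were higher, 1 lower and 2 not called (median 0.33). The neuropeptide gene Cartpt (-2.89), the sodium channel subunit gene Scn4b (-2.16), Nefl (-1.75) and Nefh were among the 20 most negative, and 8 of 12 general neuron genes were lower (5 with the score), among them Snap25, a protein of synaptic vesicle fusion, by -0.61. The share of all genes called lower was 18.8%, and 4.82% with the score. Of 14 dopamine neuron genes 5 were higher, 1 lower and 8 not called (median 0.10), against 50.4% of all genes called higher. The count moved with the setting: 4 were higher and 3 lower under the trimmed mean, none was called within decimal identifiers, 3 were higher with the meningeal score, and 11 were higher with a score of vessel-wall genes as the covariate. Th, which served as the entry limit, had medians of 1581 CPM in the Gfap-high and 1885 CPM in the Gfap-low libraries (-0.16 ± 0.14, not called); Slc6a3, the dopamine transporter, was higher by 0.75 ± 0.21 but at 0.14 within decimal identifiers, where it was not called.

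**Figure D5:**
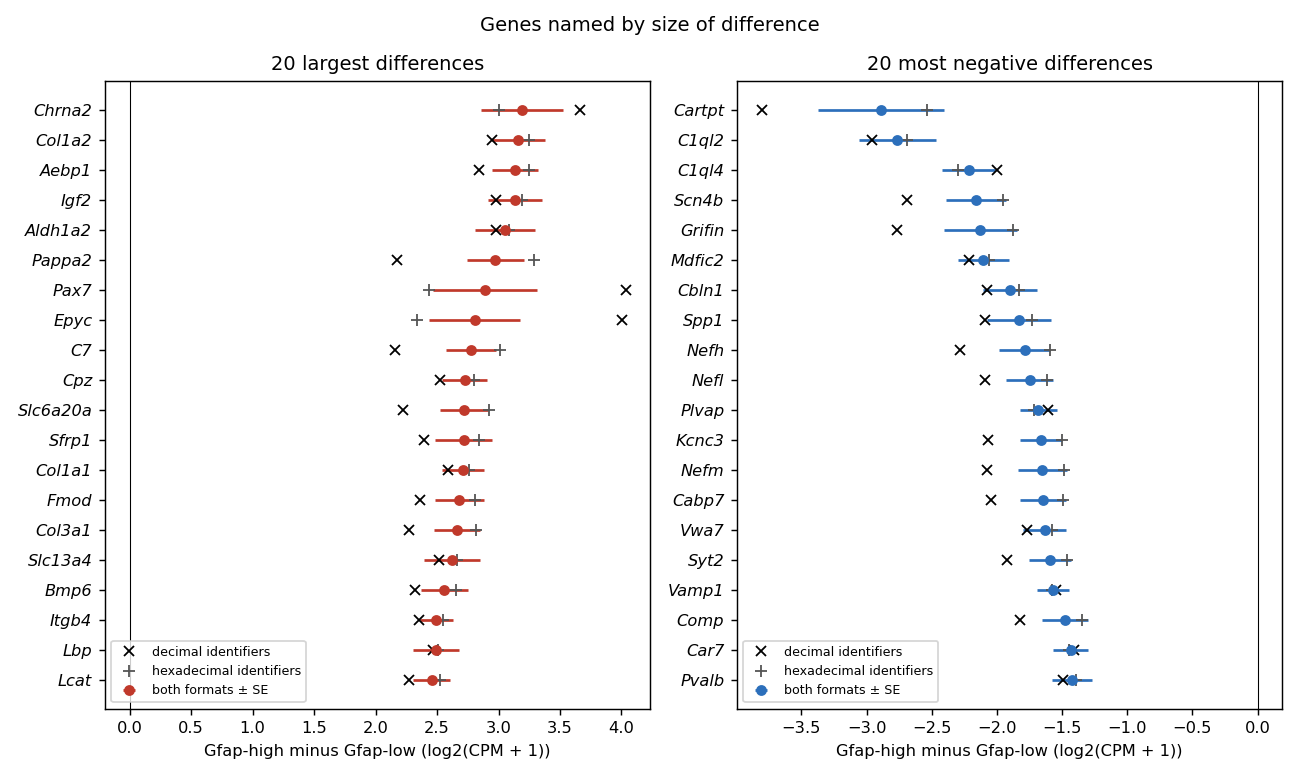
The 20 largest and 20 most negative differences between Gfap-high and Gfap-low libraries on the log2(CPM + 1) scale, with bars of 1 SE and the values within decimal and within hexadecimal identifiers. The left panel holds collagen and matrix genes such as Col1a2 (3.16) beside Chrna2 (3.19) and Pax7 (2.89), and the right panel holds neuronal genes such as Cartpt (-2.89) and Nefh (-1.79). Pappa2 and Lbp had medians of 0.79 CPM in the Gfap-low libraries, and C1ql4 and Mdfic2 of 0.98 and 0.81 CPM in the Gfap-high libraries. These genes may have passed the expression filter through their higher side, so their differences are a description only.

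Within decimal identifiers, 10 Gfap-high against 7 Gfap-low libraries, 4351 genes (27.9% of 15573) were higher and 1386 (8.90%) lower. Within hexadecimal identifiers, 20 against 22 libraries, 7502 (48.2% of 15557) were higher and 2954 (19.0%) lower. The fibrous list held in each, with 12 higher and none lower of 14 in decimal and 13 higher and 1 lower in hexadecimal libraries, and medians of 1.04 and 1.19. The general astrocyte list had 2 higher and 4 lower in decimal and 13 higher and 7 lower in hexadecimal libraries. The difference between the formats, tested as an interaction in limma, was called for none of the 15580 genes (smallest adjusted p 0.0633), while 3827 (24.6%) had an unadjusted p under 0.05.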

How the data were processed

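PolyA RNA of the posterior ventral tegmental area was sequenced per the labels, and the submitters' processing notes name kallisto 0.48; no genome build is given in the sources used here. The deposited values are taken as log2(estimated count + 1), from the table's name and from the values: of the back-transformed values between 0.5 and 100, 56.4% are whole within 0.001, and totals differ between libraries. They were back-transformed, scaled to 1e6 per library and expressed as log2(CPM + 1). Genes with a mean of at least 1 over the 60 libraries were fitted with limma 3.58.1 (R 4.3.3; eBayes with a trend), two-sided, with Benjamini-Hochberg adjustment; count models were not used. All 38278 gene positions with a RefSeq symbol, of 38354, are an end of that gene in GRCr8.

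Each library has an identifier of its own; nothing in the labels states how it was prepared, so p-values measure the spread between libraries. Alternatives covered the scaling, pseudocount, filter, number of libraries a side, identifier format and cell-type scores. The depth of 15.5 to 49.9 M counts per library limits the precision of low genes. Scores are mean z-scores of a list's members. The members and the 43 gene lists were chosen with earlier results of these data known. Named are the 20 largest and 20 most negative called differences of the same sign in both identifier formats, the 10 genes most like Gfap, and list members. Some genes without overlap between the sides are also named, chosen after their values were seen. Levels are not per transcript length and are not compared between genes. Scripts were tested on simulated data.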

Additional observations from a re-analysis of the deposited data

How the results depend on the processing

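Of 22 alternatives for the sides and 3 for the libraries in neither side, those that moved a count by over 1.5 times are given here. The number of genes higher in Gfap-high libraries and of genes lower in Gfap-high libraries, 7850 and 2931, was 4351 and 1386 with decimal identifiers only, 5225 and 5062 with the trimmed mean of M values, 5061 and 1496 with the general neuron score as a covariate, and 1639 and 751 with the meningeal score. The deposited log2 values unscaled gave 1821 lower. Alternatives chosen after seeing the data gave 1381 and 650 with the meningeal score and presence of Xist, and 3804 and 1276 with the pericyte and smooth muscle score. In the libraries in neither side, genes rising with Gfap made up 23.6% of those tested and genes falling with Gfap 7.75% with the meningeal score, added after seeing the data, in place of 39.5% and 13.4%. The fewer decimal libraries and the larger SE with the meningeal score are parts of those fits; for the others the cause was not tested.

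Over all 22 alternatives 80 of the named genes gave 1749 values, of which 1626 had the direction and call reported, 93 lost the call, 6 gained it and 24 turned the direction. With the meningeal score the turned differences were -0.35 for Timp1, -0.034 for Osmr, -0.40 for S1pr3, -0.87 for Emp1, -0.0087 for Socs3, -0.27 for Bmp6, -0.033 for Ltbp1, -0.0068 for Col1a2, -0.054 for Igf2 and -0.64 for Cd74. With Xist added to it they were -0.32 for Timp1, -0.013 for Osmr, 0.044 for Steap4, -0.39 for S1pr3, -0.82 for Emp1, -0.24 for Bmp6, -0.014 for Ltbp1, -0.036 for Col1a2, -7.24e-05 for Igf2, -0.63 for Cd74 and 0.0049 for Mbp. With the pericyte and smooth muscle score they were -0.40 for S1pr3, -0.29 for Emp1 and 0.73 for Th. Of these, S1pr3 was called in all 3 fits, Emp1 in both with the meningeal score and Th in its own. Col1a2 and Igf2 are members of the meningeal score, so their differences near 0 with it follow from how it is built. No paired analysis was possible because the labels carry no replicate numbers. The filter leaves Lcn2, Serpina3n and Cxcl10 without a call in the main fit, since their levels lie near 1 CPM or below. The medians of Lcn2 (0.224 CPM in the Gfap-high, 0.283 CPM in the Gfap-low libraries) and Serpina3n (0 CPM in both) were not higher in the Gfap-high libraries. That of Cxcl10 was, at 1.08 against 0.354 CPM.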
